A study of Drosophila melanogaster with 17 samples.

Results

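Wild-type fat bodies on the control diet are described here, 6 libraries of the 17 in the series, chosen by their labels alone. The animals were female larvae that had left the food to pupate, kept since hatching at 25C on Bloomington semi-defined medium containing sucrose at 0.15 M. Their full genotype was w1118, cgGAL4, UAS-Dcr2, so the animals called wild type carried the driver and the Dicer-2 transgene that the study's knockdown animals also carry. cgGAL4 uses a collagen promoter that is active in fat body and in blood cells. Replicates 4, 5 and 6 were each given a barcode of their own, and replicates 1, 2 and 3 were given 1 barcode in common. These are called the own-barcode and shared-barcode libraries. The labels call the replicates biological and give no sequencing run or date for either set. The 6 wild-type libraries on 0.7 M sucrose, which hold the same 2 barcode sets, served only to ask where a difference between the sets recurred.

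The larval fat body combines tasks of a liver and of adipose tissue. It stores triglyceride and glycogen, releases trehalose and lipoproteins, makes most proteins of the hemolymph, and secretes antimicrobial peptides. In the last instar it makes large amounts of larval serum proteins, hexamers that are taken back up under the control of the hormone ecdysone and broken down during metamorphosis.

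Values are taken as FPKM (fragments scaled to transcript length and library size), the output of the Cufflinks program named in the processing notes, and they look rescaled in each library by a step that is not given in the sources used here. In every one of the 6 own-barcode libraries of the series exactly 2080 rows were at 1 or more, and in every one of the 11 shared-barcode libraries exactly 2402 rows were. The value 1 thus falls at another rank in each set, so a level set across them depends on that scaling, and a percent of the library's own total does not. Summed values were 33180.5, 29778.6 and 31746.8 in own-barcode replicates 4 to 6, against 48416.1, 51741.7 and 53148.4 in shared-barcode replicates 1 to 3. Rows above 0 numbered 7086 to 8040 per library. Of 14659 rows 9133 were above 0 in at least 1 library and 6537 in all 6, 2287 had a mean of at least 1, 395 of at least 10 and 62 of at least 100. Sequencing depth is unknown, and the number of libraries limits the precision. Dcr-2, which the transgene encodes, ranked 102nd with 81.0, 75.4 and 66.7 FPKM in own-barcode libraries and 60.7, 53.9 and 50.3 FPKM in shared-barcode libraries. white, the gene mutated in w1118, averaged 0.403 ± 0.152 FPKM (SD, n = 6).

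Few genes held most of the signal. The 10 genes with the highest means held 34.3% ± 1.72 of the summed values (SD, n = 6), the top 50 held 53.3% ± 2.23 and the top 100 held 63.7% ± 3.51. On mean shares 39 genes made up 50% of the total. The top 10 share was 34.8% ± 1.82 in own-barcode and 33.8% ± 1.81 in shared-barcode libraries (SD, n = 3 each; 2-sided exact permutation p = 0.5). The top 100 share was 60.6% ± 0.910 in own-barcode and 66.7% ± 1.25 in shared-barcode libraries without overlap (2-sided exact permutation p = 0.1, the smallest that 3 against 3 libraries allow). Among the top 100, 47 encode cytosolic ribosomal proteins, 6 storage proteins, 6 salivary glue proteins, 4 are transcripts of the mitochondrial genome, and 22 belong to none of the 52 gene lists. The lists together held 66.5% ± 0.993 of the total.

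**Figure D1:**
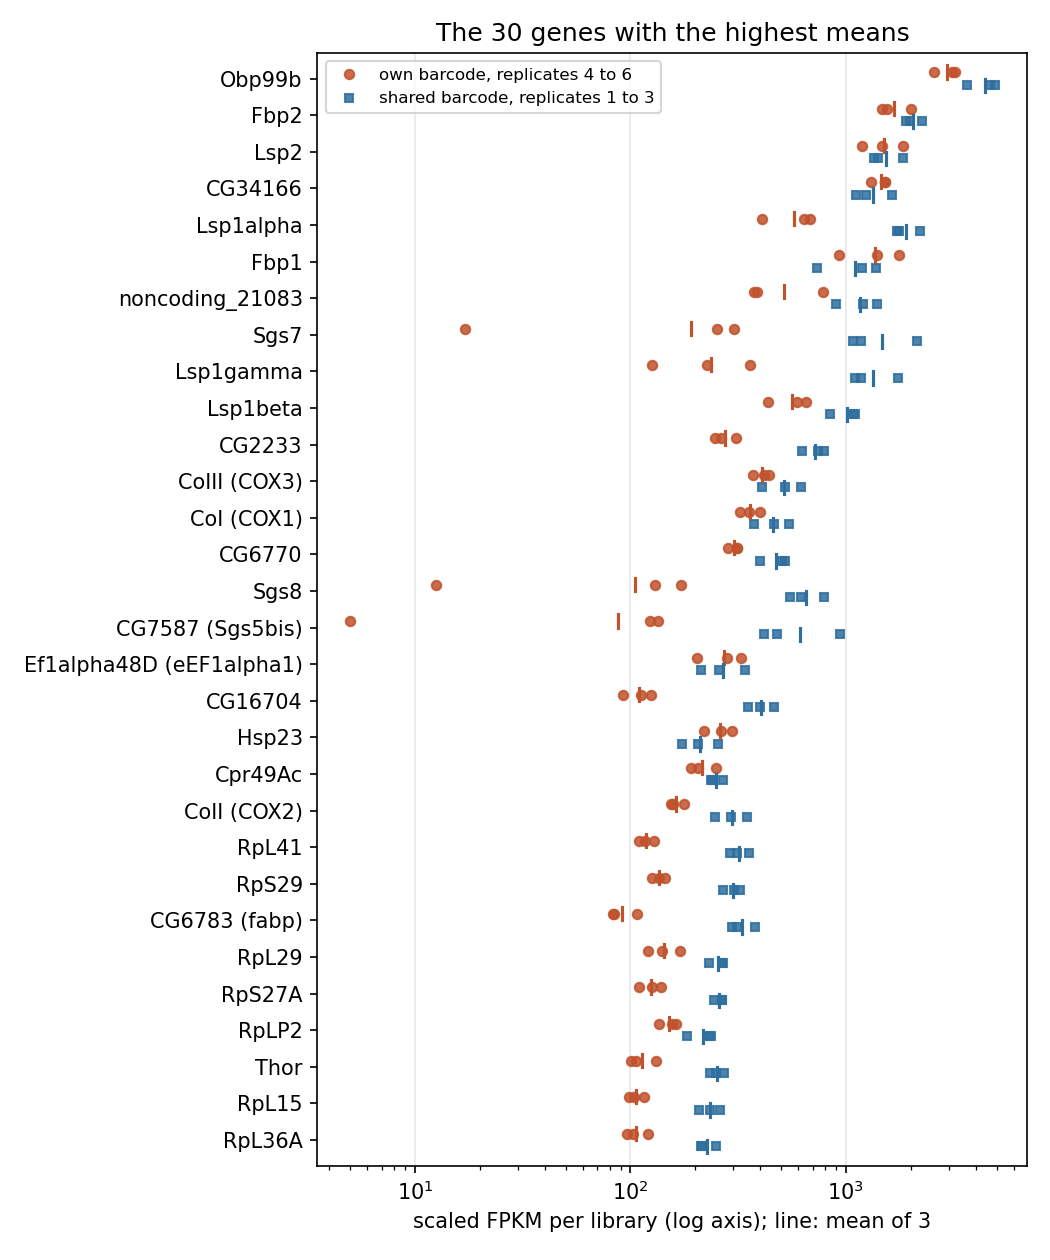
Scaled FPKM of the 30 genes with the highest means, by library, on a log axis, with own-barcode libraries (circles) above shared-barcode libraries (squares) and short lines at the mean of 3. Obp99b is highest in both sets, and the glue genes Sgs7, Sgs8 and CG7587 spread most, with replicate 4 far below the others.

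The sets were compared gene by gene with limma on log2(FPKM + 1) over all 2287 genes with a mean of at least 1, own minus shared. At an adjusted p under 0.05, 1103 genes (48.2%) differed, 149 higher (6.52%) and 954 lower (41.7%) in own-barcode libraries. That split belongs to the scaling: with every library set to the same total 971 genes (42.5%) differed, 674 higher (29.5%) and 297 lower (13%), and with a median-of-ratios scaling 930 (40.7%) did, 439 higher (19.2%) and 491 lower (21.5%). Values of the sets lay apart without overlap for 9.14% of genes with own-barcode libraries higher and for 49.4% with them lower. The median difference over all tested genes was -0.33 on the log2 scale with values as deposited, 0.16 with the same total and -0.02 with median of ratios. A gene is therefore called higher or lower below only where all 3 scalings called it in that direction, a rule chosen after seeing the data. It takes in 149 genes as higher (6.52%) and 296 as lower (12.9%), and list counts are to be read against these shares. A gene not called in all 3 may still pass in 1 or 2 of them. A gene at 1 FPKM or more in only 1 set could enter the test through that set alone, so for lists where this holds for many members values are given in place of counts. An exact 0 can be a failed estimate, and rows of proteasome and translation factor genes are also listed at 0. Adjusted p-values below are limma's, Benjamini-Hochberg adjusted, from values as deposited.

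Storage proteins held the largest mean share of any function list, with 18.0% ± 1.79 of the total from 6 genes. These include Fbp2 (4.64%) and Fbp1 (3.23%), without which the list would fall below the ribosomal proteins at 17.2%. The summed share of the 6 was 21.4%, 18.0% and 16.5% in own-barcode libraries and 16.97%, 18.2% and 17.1% in shared-barcode libraries, so the sets overlapped. Ribosomal proteins held more in own-barcode replicate 6 (19.2%) and in shared-barcode replicate 3 (17.14% against 17.12%). Weighted by transcript length the storage list held 31.8%. Fbp2, a storage-phase protein related to alcohol dehydrogenase, ranked second with 1858 ± 293 FPKM. Lsp2, a larval serum protein, had 1834, 1463 and 1190 FPKM in own-barcode libraries and 1351, 1409 and 1838 FPKM in shared-barcode libraries. Fbp1, the receptor for larval serum proteins, had 1761, 1396 and 926 FPKM in own-barcode libraries and 1184, 733 and 1372 FPKM in shared-barcode libraries. For these 3 genes the FPKM of the sets overlapped and the log2 differences of -0.30 ± 0.16, -0.04 ± 0.20 and 0.31 ± 0.31 (SE) did not pass. Their shares did not overlap, at 5.29%, 4.73% and 4.30% in own-barcode libraries against 4.00%, 2.99% and 2.15% in shared-barcode libraries, and with the same total Fbp2, Lsp2 and Fbp1 passed as higher (log2 0.40, 0.65 and 1.01).

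The Lsp1 subunits, by contrast, did not keep the same ratio to each other in the 2 sets. Lsp1alpha had 636, 406 and 681 FPKM in own-barcode libraries, against 1762, 2196 and 1732 FPKM in shared-barcode libraries, a log2 difference of -1.75 ± 0.22 (SE, adjusted p = 0.0011). Lsp1gamma had 227, 126 and 357 FPKM in own-barcode libraries, against 1175, 1748 and 1097 FPKM in shared-barcode libraries, a log2 difference of -2.59 ± 0.40 (SE, adjusted p = 0.0031). Both sets of values lay apart for each gene, and both genes were lower in all 3 scalings. Lsp1beta took 1.77% of own-barcode and 1.97% of shared-barcode totals and was not called in all 3 scalings. On high sugar Lsp1alpha and Lsp1gamma differed by -0.34 and 0.14 on the log2 scale between the sets, with adjusted p = 0.18 and 0.60.

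The single highest gene was Obp99b, which encodes an odorant-binding protein, a small secreted carrier of hydrophobic molecules. It had 3197, 2554 and 3096 FPKM in own-barcode libraries and 3665, 4641 and 4929 FPKM in shared-barcode libraries. Its share was 8.96% ± 0.808 (SD, n = 6), and it ranked first in both sets. Of 44 Obp genes 34 were listed at 0 in all 6 libraries. Obp99c followed at 63.2 ± 12.5 FPKM. Obp56d was listed at 0 in all own-barcode libraries and had 6.07, 5.59 and 1.60 FPKM in shared-barcode libraries. It entered the test through shared-barcode libraries alone, so no call is read from it.

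Several of the highest genes have little annotated function. CG34166, at rank 4, had 1526, 1313 and 1517 FPKM in own-barcode libraries and 1237, 1636 and 1115 FPKM in shared-barcode libraries. These overlapped, whereas its share was 4.60% in own-barcode and 2.61% in shared-barcode libraries, and it passed as higher with the same total (log2 0.84) and with median of ratios (log2 0.60). CG2233 had 310, 246 and 264 FPKM in own-barcode libraries, against 792, 625 and 739 FPKM in shared-barcode libraries, and was lower in all 3 scalings (log2 -1.39 ± 0.15, adjusted p = 0.00072). CG16704 had 124, 92.8 and 112 FPKM in own-barcode libraries, against 463, 352 and 398 FPKM in shared-barcode libraries, and was lower as well (log2 -1.87 ± 0.16, adjusted p = 0.00044). CG6770, at 389 ± 104 FPKM, held 0.961% of own-barcode and 0.933% of shared-barcode totals. Of the 22 genes of the top 100 in no list 18 have a CG number as their current symbol, and those 18 held 9.18% of the total. An unannotated noncoding prediction, noncoding_21083, ranked seventh with 841 ± 416 FPKM. CG31775 and CG42586 are reported as uncertain, since their values stood in a near-constant ratio in every library and they may share reads.

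Cytosolic ribosomal proteins held 17.2% ± 0.978 of the total. Their share was 16.8%, 16.8% and 19.2% in own-barcode libraries and 16.5%, 16.9% and 17.1% in shared-barcode libraries, and weighted by length the list held 9.54%. Of 89 list members 82 had a mean of at least 1, from 7.78 to 219 FPKM with a median of 74.8. Members differed in opposite directions. RpL8 had 39.4, 33.9 and 34.8 FPKM in own-barcode libraries, against 15.0, 15.7 and 22.3 FPKM in shared-barcode libraries (log2 1.01 ± 0.17, adjusted p = 0.0034). RpL41 had 109, 117 and 129 FPKM in own-barcode libraries, against 313, 354 and 289 FPKM in shared-barcode libraries (log2 -1.42 ± 0.13, adjusted p = 0.00044). For each gene the values of the sets lay apart. In all, 9 members were higher, 16 were lower and 57 were not called in all 3 scalings. The 9 higher members had a median transcript length of 1085.5 bases. The 16 lower ones had 730.5 bases, near the 676.5 of the 57 not called and the 707.5 of all 82.

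Where the genome holds a pair of genes for 1 ribosomal protein, 1 copy usually dominated. In 7 of 10 pairs examined the other copy held under 1% of the pair's summed mean. RpS5a averaged 60.1 ± 7.17 FPKM and RpS5b 0.304 ± 0.0589 FPKM, RpS19a 74.4 ± 5.89 and RpS19b 0.0820 ± 0.129, and RpL22-like, RpS28a, RpL37b and RpS10a were listed at 0 in all 6 libraries. The 3 exceptions were RpS14b with 27.6%, RpS15Ab with 27.5% and RpL34a with 24.7% of their pair. Copies that are nearly identical share reads, so these splits are uncertain.

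Translation factors held 2.03% ± 0.312. Their leading gene, Ef1alpha48D, which delivers aminoacyl-tRNA to the ribosome, had 327, 281 and 204 FPKM in own-barcode libraries and 258, 212 and 340 FPKM in shared-barcode libraries, which overlapped (log2 0.00 ± 0.24, adjusted p = 0.99). Its share was 0.857% in own-barcode and 0.527% in shared-barcode libraries, and Ef1alpha48D passed as higher with the same total (log2 0.70, adjusted p = 0.039). Thor, the binding protein that restrains cap-dependent initiation, ranked 28th with 132, 101 and 106 FPKM in own-barcode libraries, against 271, 234 and 248 FPKM in shared-barcode libraries (log2 -1.15 ± 0.14, adjusted p = 0.00098, lower in all 3 scalings). The mitochondrial ribosome was far less abundant. Of its 74 measured genes 6 had a mean of at least 1, led by mRpL33 at 2.13 ± 1.07 FPKM, and the list held 0.0811% ± 0.0112.

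Transcripts of the mitochondrial genome held 3.44% ± 0.687, against 0.348% ± 0.0949 for the nuclear genes of ATP synthase and the respiratory chain. CoIII led with 416, 439 and 369 FPKM in own-barcode libraries and 617, 520 and 407 FPKM in shared-barcode libraries. CoI, the catalytic subunit of the same oxidase, followed with 356, 398 and 324 FPKM in own-barcode libraries and 544, 461 and 376 FPKM in shared-barcode libraries. Neither difference passed the threshold (adjusted p = 0.18 and 0.13). Levels per length ranged down to 1.398 FPKM for ND6, a subunit of complex I. ND2, of the same complex, had 5.29, 6.42 and 5.11 FPKM in own-barcode libraries, against 3.22, 2.15 and 1.57 FPKM in shared-barcode libraries. ND2, ND6 and ATPase8 were the 3 members of 13 higher in all 3 scalings. Of these, 1 had a shared-barcode mean under 1 and entered the test through own-barcode libraries. Among the nuclear genes CG1746 (ATPsynC), the proton-carrying ring subunit of ATP synthase, led with 21.2 ± 10.6 FPKM.

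**Figure D2:**
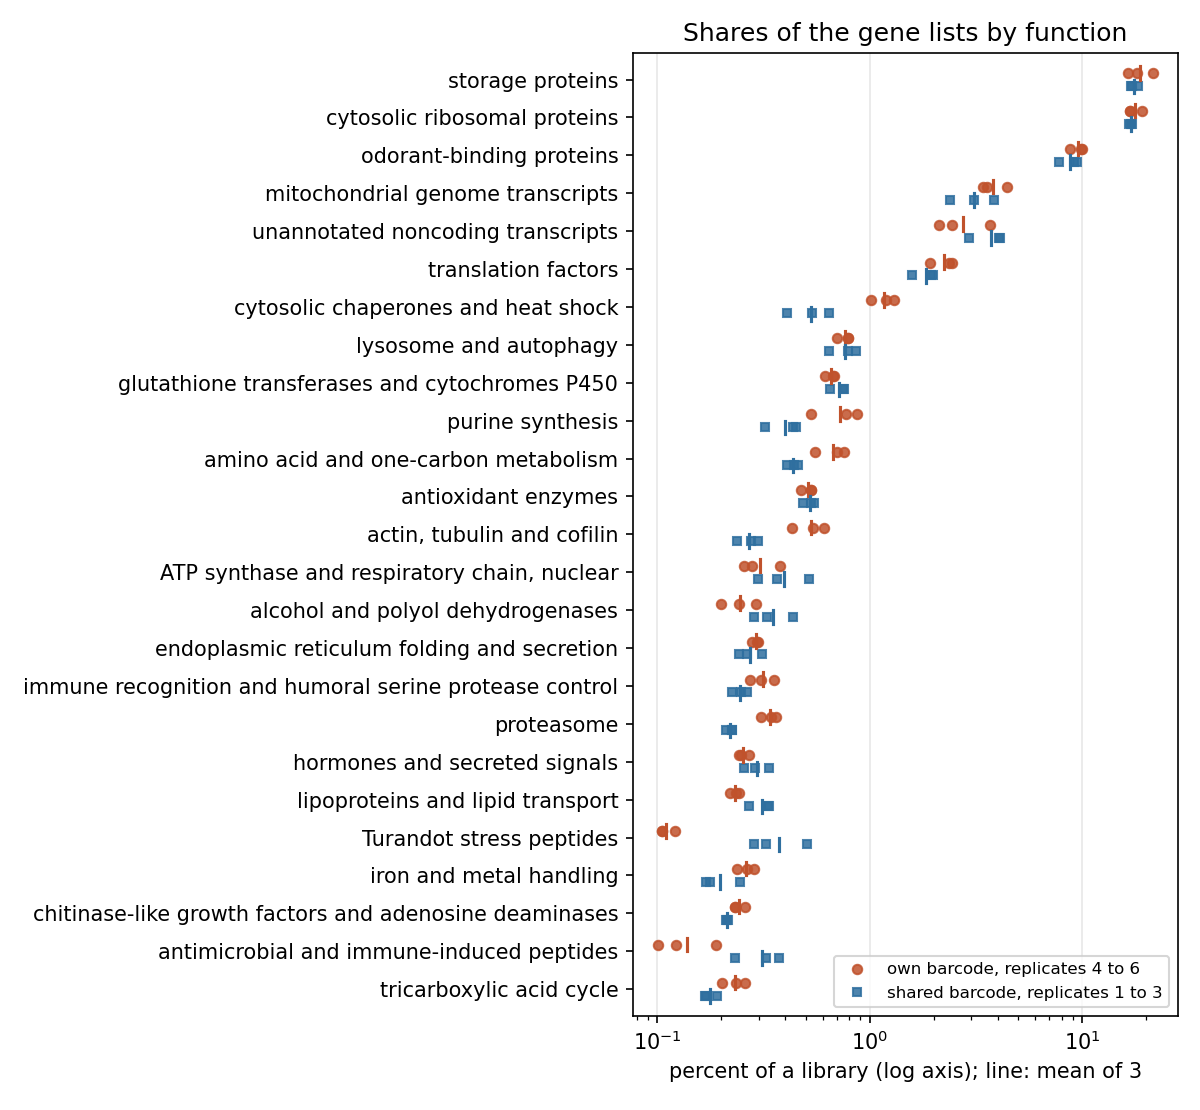
Percent of each library's summed values held by the function lists with a mean share of at least 0.2%, on a log axis, with own-barcode libraries (circles) above shared-barcode libraries (squares) and short lines at the mean of 3. Storage and ribosomal proteins lead in all 6 libraries, and the chaperone, actin and proteasome lists lie higher in own-barcode libraries, while Turandot and antimicrobial peptides lie lower.

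Enzymes of intermediary metabolism were expressed at moderate levels and none of their lists reached 1%. Amino acid and one-carbon metabolism held 0.553% ± 0.145 and purine synthesis 0.562% ± 0.213, both above glycolysis at 0.147% ± 0.0118, the tricarboxylic acid cycle at 0.204% ± 0.0364 and fatty acid synthesis at 0.0417% ± 0.00815. CG11089, a bifunctional enzyme of the last steps to inosine monophosphate, had 117, 94.1 and 59.9 FPKM in own-barcode libraries and 73.5, 46.1 and 84.7 FPKM in shared-barcode libraries, which overlapped, and it passed as higher only with the same total (log2 1.08). Gs1, a glutamine synthetase, averaged 35.4 ± 10.3 FPKM and Hn, phenylalanine hydroxylase, 30.6 ± 11.6 FPKM. CG3011 (Shmt), which makes one-carbon units from serine, had 38.0, 29.2 and 21.5 FPKM in own-barcode libraries, against 15.0, 10.8 and 18.1 FPKM in shared-barcode libraries (log2 0.96 ± 0.26, adjusted p = 0.019, higher in all 3 scalings).

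Sugar metabolism was led by the cytosolic malate dehydrogenase CG5362 (Mdh1) at 43.3 ± 9.73 FPKM, the gluconeogenic Pepck at 26.8 ± 10.2 FPKM, Gapdh1 at 19.8 ± 4.98 FPKM and Aldolase at 13.6 ± 1.71 FPKM. Tps1, which makes the circulating sugar trehalose, averaged 3.74 ± 0.851 FPKM. None of the 10 glycolysis genes, 4 gluconeogenesis genes, 8 trehalose and glycogen genes or 8 tricarboxylic acid cycle genes tested was called in all 3 scalings. With the same total 4, 2, 2 and 5 of them passed as higher and none as lower, against 29.5% of all tested genes as higher. Each list's share was higher in own-barcode libraries without overlap (2-sided exact permutation p = 0.1 each). In this order the shares were 0.155%, 0.151%, 0.0699% and 0.231%, against 0.139%, 0.0694%, 0.0511% and 0.176% in shared-barcode libraries. Pepck had 42.1, 37.0 and 22.0 FPKM in own-barcode libraries and 18.1, 18.3 and 23.3 FPKM in shared-barcode libraries, which overlapped through replicates 6 and 3 and did not pass, whereas it passed as higher with the same total (log2 1.36) and with median of ratios (log2 1.13).

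Among genes of fat storage the lipid droplet coats had higher levels per length than the enzymes of synthesis. The coat proteins Lsd-1 and Lsd-2 averaged 23.5 ± 5.97 and 16.3 ± 2.91 FPKM. The desaturase desat1 averaged 10.6 ± 5.83 FPKM, FASN1 (CG3523), the fatty acid synthase, 1.71 ± 0.839 FPKM, ATPCL, which supplies its acetyl-CoA, 1.14 ± 0.382 FPKM, and mdy, a diacylglycerol acyltransferase, 1.36 ± 0.796 FPKM. The apolipophorin precursor Rfabg (apolpp), backbone of the main hemolymph lipoprotein, had 48.9, 37.3 and 43.8 FPKM in own-barcode libraries, against 127, 137 and 105 FPKM in shared-barcode libraries (log2 -1.48 ± 0.16, adjusted p = 0.00072, lower in all 3 scalings). CG6783 (fabp), a fatty acid-binding protein at rank 24, had 83.6, 83.2 and 107 FPKM in own-barcode libraries, against 313, 378 and 297 FPKM in shared-barcode libraries (log2 -1.84 ± 0.16, adjusted p = 0.00043, lower in all 3 scalings). bmm, the adipose triglyceride lipase, averaged 2.35 ± 0.55 FPKM.

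Chaperones and detoxifying enzymes were also measured. Cytosolic chaperones took 1.302%, 1.18% and 1.01% in own-barcode libraries, against 0.535%, 0.405% and 0.643% in shared-barcode libraries, which did not overlap (2-sided exact permutation p = 0.1). Hsp23, a small heat shock protein that ecdysone also induces, made up most of this with 296, 263 and 220 FPKM in own-barcode libraries and 206, 173 and 254 FPKM in shared-barcode libraries, and its difference did not pass as deposited (adjusted p = 0.21). Hsp23 passed as higher with the same total (log2 1.00, adjusted p = 0.0044) and with median of ratios (log2 0.76, adjusted p = 0.014), and its share was 0.823% in own-barcode and 0.413% in shared-barcode libraries. Of 13 chaperone genes tested 3 were higher and none lower in all 3 scalings, among them Hsp83 and Hsp27. Hsp83 had 24.4, 17.01 and 15.7 FPKM in own-barcode libraries, against 8.12, 4.00 and 11.9 FPKM in shared-barcode libraries (log2 1.23 ± 0.36, adjusted p = 0.030).

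Antioxidant enzymes held 0.515% ± 0.0285, led by CG6762 (Srx), a sulfiredoxin, at 90.9 ± 34.7 FPKM and by catalase (Cat) at 37.0 ± 4.30 FPKM. Glutathione transferases and cytochromes P450 held 0.685% ± 0.0551 from 35 tested genes of 99, with 10 lower, 3 of them with an own-barcode mean under 1, and none higher in all 3 scalings. GstD1 averaged 41.0 ± 10.5 FPKM and Cyp6d5 36.7 ± 13.2 FPKM. GstE3 had 8.29, 7.26 and 8.71 FPKM in own-barcode libraries, against 31.2, 26.1 and 25.3 FPKM in shared-barcode libraries (log2 -1.65 ± 0.14, adjusted p = 0.00043). Alcohol dehydrogenase (Adh), which handles dietary ethanol, ranked 48th at 114 ± 61.1 FPKM and was lower in own-barcode libraries (log2 -1.33 ± 0.24, adjusted p = 0.0043).

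Immune transcripts were present without a labelled infection. The antifungal peptide Drs had 18.5, 21.6 and 13.0 FPKM in own-barcode libraries, against 91.1, 75.6 and 66.1 FPKM in shared-barcode libraries (log2 -2.09 ± 0.21, adjusted p = 0.00062). The list of antimicrobial and immune-induced peptides took 0.188%, 0.123% and 0.1003% in own-barcode libraries, against 0.373%, 0.324% and 0.233% in shared-barcode libraries. TotA, a secreted stress peptide of the Turandot family, had 40.0, 31.3 and 33.2 FPKM in own-barcode libraries, against 236, 147 and 171 FPKM in shared-barcode libraries (log2 -2.35 ± 0.20, adjusted p = 0.00041, lower in all 3 scalings). The clotting protein fon averaged 35.4 ± 9.73 FPKM and the glucan sensor GNBP3 13.3 ± 3.59 FPKM.

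Secreted signals of the fat body were among the measured genes. The growth-blocking peptides CG17244 (Gbp3), CG15917 (Gbp1) and CG11395 (Gbp2) averaged 33.0 ± 12.9, 29.995 ± 17.3 and 19.7 ± 4.35 FPKM. Gbp3 and Gbp1 were lower in all 3 scalings (log2 -1.03 ± 0.13 and -1.46 ± 0.19, adjusted p = 0.0010 and 0.0011). The insulin-like peptide Ilp6 averaged 18.9 ± 4.76 FPKM. Of the sugar-sensing Mondo network, dmondo averaged 1.47 ± 0.283 FPKM, its partner bigmax 1.097 ± 0.303 FPKM and the target cbt 1.70 ± 0.244 FPKM. Ecdysone response genes were low, led by br at 4.45 ± 0.478 FPKM, whose sets overlapped (log2 -0.04 as deposited, 0.53 with the same total, where it passed). Of 115 histone rows 105 were listed at 0 in all 6 libraries, and the leading ones were the histone gene His4r at 28.4 ± 7.24 FPKM and the variant His3_3B at 12.0 ± 2.72 FPKM. Yolk protein genes, a product of the adult female fat body, were listed at 0 in all 6 libraries for 2 of 3 members, while Yp3 was listed at 0 in all own-barcode libraries and had 0.180, 0.150 and 0.190 FPKM in shared-barcode libraries.

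Some cytoskeletal, proteasome and matrix genes were higher in own-barcode libraries, to be read against 6.52% of all tested genes. Of 9 actin, tubulin and cofilin genes 5 were higher and none lower in all 3 scalings. As deposited 5 were higher and 3 lower. With the length trend removed from values as deposited, which keeps their scaling, 5 were higher and 2 lower. Act5C, the main cytoplasmic actin, had 58.3, 69.7 and 62.4 FPKM in own-barcode libraries, against 34.9, 29.4 and 45.0 FPKM in shared-barcode libraries (log2 0.80 ± 0.18, adjusted p = 0.0088). Actin genes are near-identical in sequence, so the split of reads between them is uncertain. Of 28 proteasome genes 11 were higher and none lower in all 3 scalings. As deposited 7 were lower beside the 11 higher, and with the length trend removed 6 were higher and 8 lower. Basement membrane genes took 0.0836%, 0.0965% and 0.0782% in own-barcode libraries, against 0.0406%, 0.0333% and 0.0355% in shared-barcode libraries. BM-40-SPARC, a collagen-binding matrix protein, had 8.46, 8.10 and 8.27 FPKM in own-barcode libraries and 5.39, 5.17 and 6.23 FPKM in shared-barcode libraries (log2 0.50 ± 0.12, adjusted p = 0.013). Cg25C, the collagen whose promoter drives cgGAL4, averaged 1.90 ± 0.52 FPKM, its sets overlapped, and it passed as higher with the same total (log2 0.77) and with median of ratios (log2 0.61) but not as deposited.

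Agreement between libraries was close within a set and looser across sets. Across the 2287 genes the median Spearman correlation was 0.895 for the 3 pairs of own-barcode libraries, 0.895 for the 3 pairs of shared-barcode libraries and 0.724 for the 9 pairs between sets, where it ranged over 0.621 to 0.786. These are descriptions over genes that share library and scaling. The median coefficient of variation of a gene's share was 14.7% within own-barcode libraries, 17.9% within shared-barcode libraries and 29.4% over all 6. The 10 genes highest in each set had 8 in common, the top 30 had 23 and the top 100 had 76.

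**Figure D3:**
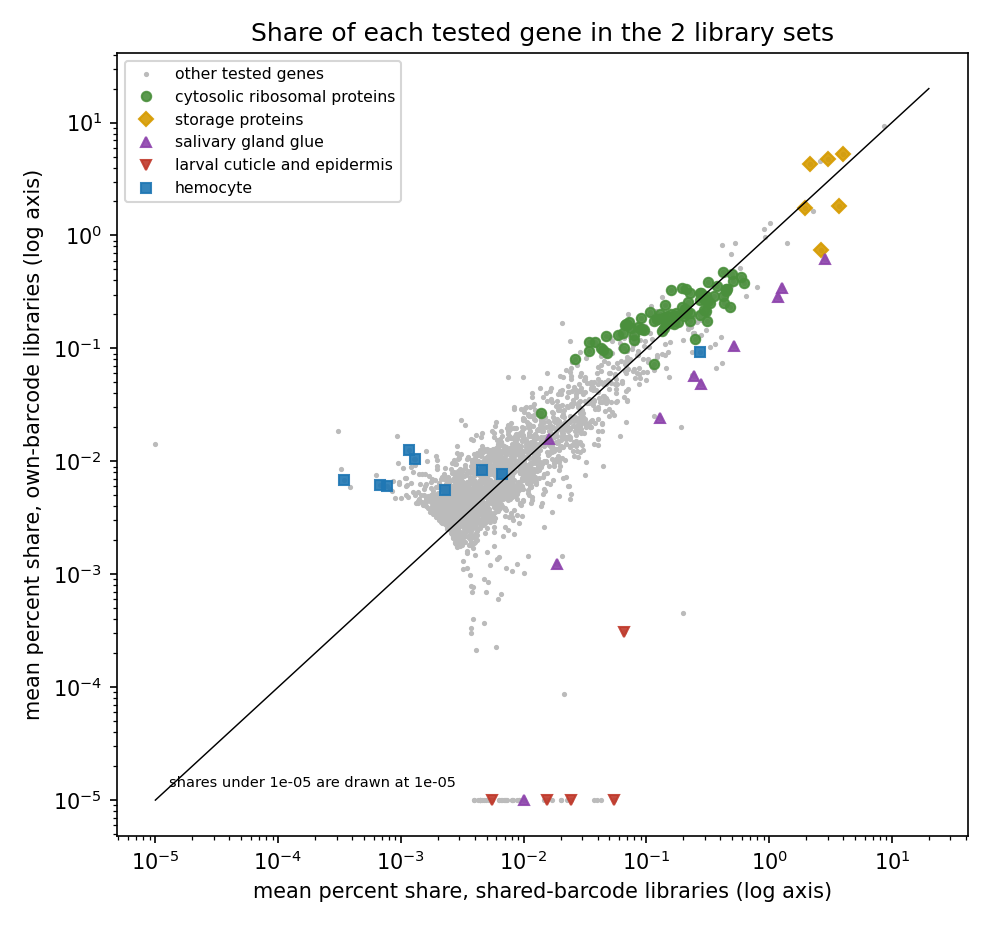
Mean percent share of each of the 2287 tested genes in own-barcode libraries (vertical, log axis) against shared-barcode libraries (horizontal, log axis), with 5 lists marked and a line of equal shares. Ribosomal proteins with low shares lie above the line and those with high shares mostly on or below it, cuticle genes and all glue genes but Eip71CD fall well below it, and all hemocyte genes but Nplp2 lie above it. Shares under 1e-05 are drawn at 1e-05.

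Genes that differed most between the sets included some that were near or at 0 in 1 set. CG42500 was listed at 0 in 2 own-barcode libraries and had 0.435 FPKM in the other, against 65.3, 147 and 96.3 FPKM in shared-barcode libraries. CG14852, CG13460 and CG32198 were listed at 0 in all own-barcode libraries and had 15.3 to 23.8, 10.8 to 23.7 and 13.8 to 35.8 FPKM in shared-barcode libraries. These genes, CG42500 included, entered the test through shared-barcode libraries alone, so no p-value is read from them. In the other direction noncoding_21036 had 53.7, 47.0 and 57.0 FPKM in own-barcode libraries, against 16.4, 7.36 and 6.98 FPKM in shared-barcode libraries (log2 2.34 ± 0.31, adjusted p = 0.0014). Mur18B, a mucin-related gene, had 16.6, 16.97 and 19.1 FPKM in own-barcode libraries, against 3.79, 2.47 and 5.28 FPKM in shared-barcode libraries (log2 1.98 ± 0.22, adjusted p = 0.00076). Fst, a gene named for its response to cold, had 37.0, 33.4 and 39.2 FPKM in own-barcode libraries, against 12.5, 9.28 and 14.9 FPKM in shared-barcode libraries (log2 1.52 ± 0.18, adjusted p = 0.00094). Dcr-2 was higher too (log2 0.43 ± 0.13, adjusted p = 0.031), a call lost when each library's trend with transcript length was removed (log2 0.07).

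Transcript length moved with the set difference. With the same total in every library the median log2 difference was -0.61 for 123 genes under 500 bases, -0.09 for 607 genes of 500 to 1000 bases, 0.13 for 496 genes of 1000 to 1500 bases and 0.39 for 413 genes of 2000 to 3000 bases. Genes under 500 bases held 9.74% ± 1.12 of own-barcode and 14.5% ± 0.988 of shared-barcode totals. The Spearman correlation of difference and length across 2225 genes was 0.40. The 149 genes higher in all 3 scalings had a median length of 1666 bases and the 296 lower ones of 765 bases. With each library's length trend removed 41 of the named differences kept their direction and side of the threshold, 8 no longer passed, 2 newly passed and 1 changed sign.

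**Figure D4:**
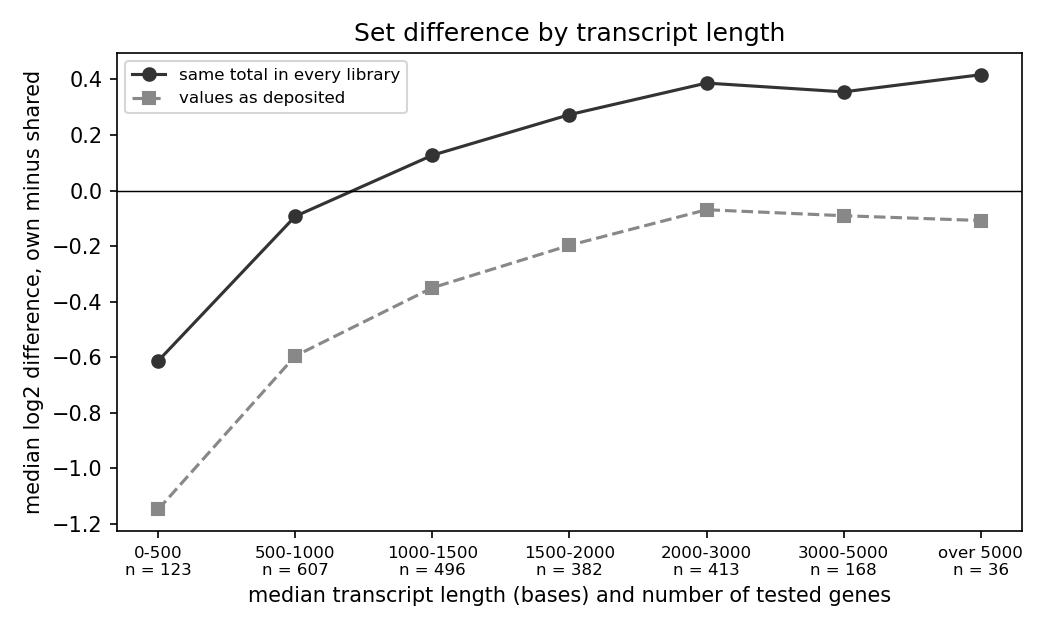
Median log2 difference, own minus shared, of the tested genes in 7 bins of median transcript length in bases, with every library at the same total (circles) and with values as deposited (squares). With the same total the median is below 0 up to 1000 bases and above 0 beyond.

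The same set difference on high sugar was measured in 6 other libraries. There 1227 of 2307 genes differed between the sets with values as deposited (53.2%), 481 higher (20.8%) and 746 lower (32.3%) in own-barcode libraries. With the same total 603 were higher and 633 lower. In a fit of all 17 libraries, knockdown ones included, the set difference itself changed with diet for 482 of 2297 genes (21%). Of these 337 moved toward higher (14.7%) and 145 toward lower values (6.31%) in own-barcode libraries on high sugar. With the same total in every library 483 of 2443 genes changed, 102 toward higher and 381 toward lower values. The direction of that split turns with the scaling. The mean filter was applied after this rescaling, so the genes tested are not the same. Of the 149 genes higher on the control diet 119 could be tested, and 61 were again higher and 20 lower. Of the 296 genes lower on the control diet 278 could be tested, and 189 were again lower and 2 higher.

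Genes of other tissues made up a small but uneven part. The defining genes of fat body held 18.4% ± 1.79, with all 14 above a mean of 1 FPKM. In a dissected tissue, fewer cells of another type and less RNA per cell cannot be told apart. The salivary glue list, secretory proteins that fix the puparium to its substrate, was the only other-tissue list above 1%. It took 0.132%, 2.50% and 1.87% of own-barcode libraries, against 5.51%, 5.38% and 8.66% of shared-barcode libraries, and so ranged widely even within a set. Weighted by length the list held 1.63% instead of 4.01%. Sgs7 had 17.1, 302 and 254 FPKM in own-barcode libraries, against 1082, 1172 and 2144 FPKM in shared-barcode libraries (log2 -3.64 ± 1.15, adjusted p = 0.045), a call lost in both other scalings. Sgs5 had 2.00, 33.7 and 8.42 FPKM in own-barcode libraries, against 138, 138 and 149 FPKM in shared-barcode libraries (log2 -3.84 ± 0.87, adjusted p = 0.015), a call lost without replicate 2, 3 or 6.

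Some unlisted genes had the library order of the glue genes, lowest in replicate 4 and highest in replicate 3. CG31698 had 1.01, 32.8 and 28.5 FPKM in own-barcode libraries and 121, 115 and 333 FPKM in shared-barcode libraries. CG15404 had 1.74, 36.5 and 30.6 FPKM in own-barcode libraries and 140, 125 and 382 FPKM in shared-barcode libraries, and CG7606 had 6.79, 45.9 and 42.4 FPKM in own-barcode libraries and 130, 116 and 260 FPKM in shared-barcode libraries. CG15404 and CG7606 were picked after their values were seen. CG12310 had 0.637, 8.95 and 9.13 FPKM in own-barcode libraries, against 65.1, 87.5 and 142 FPKM in shared-barcode libraries (log2 -4.10 ± 0.79, adjusted p = 0.0090, lower in all 3 scalings).

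**Figure D5:**
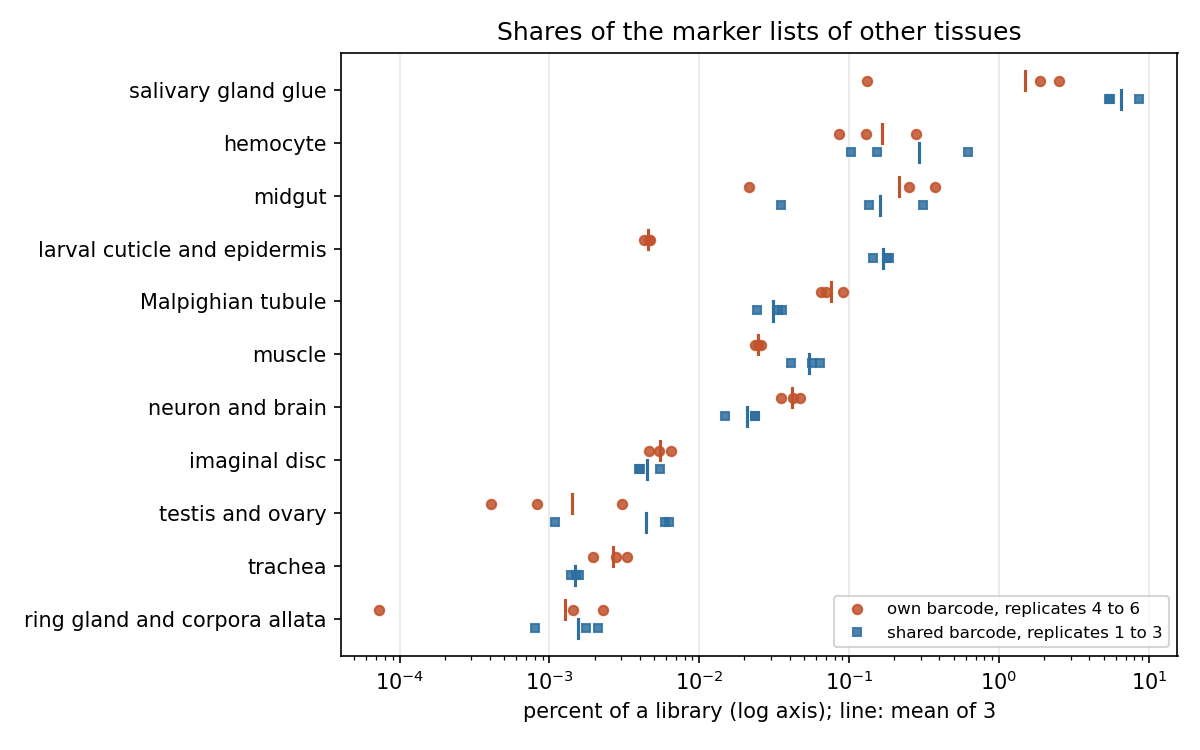
Percent of each library's summed values held by marker lists of 11 other tissues, on a log axis, with own-barcode libraries (circles) above shared-barcode libraries (squares) and short lines at the mean of 3. The glue, cuticle and muscle lists are lower in every own-barcode library, the tubule, neuron and trachea lists are higher there, and the midgut and hemocyte lists spread within both sets.

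The list of larval cuticle genes, products of the epidermis, split the sets through its Lcp genes. TwdlE, serp and verm of the same list overlapped between the sets. TwdlE had 0.977, 1.04 and 0.742 FPKM in own-barcode libraries and 0.890, 0.667 and 0.868 FPKM in shared-barcode libraries. The list took 0.00425%, 0.00470% and 0.00459% of own-barcode libraries, against 0.178%, 0.185% and 0.144% of shared-barcode libraries. Lcp1 was listed at 0 in 2 own-barcode libraries and had 0.295 FPKM in the other, against 30.3, 42.3 and 29.1 FPKM in shared-barcode libraries. Lcp2, Lcp3 and Lcp4 were listed at 0 in all own-barcode libraries and had 5.80 to 31.1 FPKM in shared-barcode libraries. The 5 members with a mean of at least 1 reached it through shared-barcode libraries alone, so no count or p-value is read from them. Of 29 list members 25 were listed at 0 in every own-barcode library and 17 in every shared-barcode library. Cpr49Ac, a cuticle-protein gene outside the list, behaved differently. It ranked 20th with 249, 205 and 191 FPKM in own-barcode libraries and 269, 241 and 236 FPKM in shared-barcode libraries, which overlapped (adjusted p = 0.25). Its share was 0.681% in own-barcode and 0.488% in shared-barcode libraries, and Cpr49Ac passed as higher only with the same total (log2 0.48).

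Muscle genes were low throughout, at 0.0260%, 0.0248% and 0.0234% of own-barcode and 0.0562%, 0.0643% and 0.0412% of shared-barcode libraries. The 6 members called lower in all 3 scalings had own-barcode means under 1 and entered the test through shared-barcode libraries. No count or p-value is therefore read from them. Tm1, a tropomyosin above 1 FPKM in every library, was not called in all 3. Act57B, a muscle actin, had 1.03, 0.822 and 0.869 FPKM in own-barcode libraries, against 3.82, 6.36 and 3.96 FPKM in shared-barcode libraries. Act87E, another actin, was higher (log2 0.43 ± 0.12, adjusted p = 0.024), with the same doubt about reads shared among actins, and that call was lost with the length trend removed.

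Midgut digestive genes varied between libraries without regard to the set. Their share was 0.0216%, 0.251% and 0.372% in own-barcode libraries and 0.0350%, 0.309% and 0.135% in shared-barcode libraries, so replicates 4 and 1 were lowest. Jon65Aiv, a Jonah protease, had 2.30, 25.8 and 30.4 FPKM in own-barcode libraries and 5.55, 44.6 and 15.7 FPKM in shared-barcode libraries. None of the 16 midgut genes tested was called in any of the 3 scalings.

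Blood-cell genes did not share 1 pattern in FPKM. On mean shares all tested members of the list but Nplp2 were higher in own-barcode libraries, crq among them. Nplp2, a neuropeptide-like precursor gene in the list, had 10.4, 13.9 and 63.1 FPKM in own-barcode libraries and 61.0, 314 and 44.0 FPKM in shared-barcode libraries, and the list's share reached 0.624% in shared-barcode replicate 2. The scavenger receptor crq had 2.08, 2.63 and 2.58 FPKM in own-barcode libraries, against 3.70, 3.18 and 3.24 FPKM in shared-barcode libraries, and was not called in all 3 scalings. CG8193 (PPO2), a prophenoloxidase of crystal cells, had 2.73, 4.35 and 4.74 FPKM in own-barcode libraries, against 0.671, 0.552 and 0.564 FPKM in shared-barcode libraries. Hml, the hemolectin of plasmatocytes, had 2.42, 1.505 and 2.55 FPKM in own-barcode libraries, against 0.250, 0.140 and 0.129 FPKM in shared-barcode libraries. The 5 members called higher in all 3 scalings had shared-barcode means under 1 and entered the test through own-barcode libraries. No count or p-value is therefore read from them.

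The remaining tissues left little signal. Uro, the urate oxidase of the Malpighian tubule, averaged 15.3 ± 4.30 FPKM with 17.2, 14.6 and 22.6 FPKM in own-barcode libraries and 13.2, 14.4 and 9.83 FPKM in shared-barcode libraries, and the values lay apart. The difference did not pass as deposited (adjusted p = 0.084), whereas Uro passed as higher with the same total (log2 1.15, adjusted p = 0.0055) and with median of ratios (log2 0.93, adjusted p = 0.014). The neuron list rested on Syt1, a synaptotagmin at 11.4 ± 2.60 FPKM, while elav, which marks neurons, averaged 0.119 ± 0.0915 FPKM and 4 of 11 members were listed at 0 throughout. No gene of the trachea, ring gland, imaginal disc or testis and ovary lists reached a mean of 1 FPKM. The part of these tissues in the set difference was not tested.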

How the data were processed

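RNA of 6 wild-type control-diet fat body libraries was analysed, with 6 wild-type high-sugar libraries for recurrence. The change of the set difference with diet was fitted on all 17 libraries, so knockdown libraries entered its variance estimate. Per the submitters' processing notes, Bowtie 0.12.7, TopHat 1.3.2, Cufflinks 1.1.0 and build dm3 were used. The header of the deposited matrix names no unit. The values were taken as FPKM made by the authors because Cufflinks is named, and they look rescaled per library. Annotation, strandedness, counts and any rescaling were not given in the sources used here, so depth is unknown. The labels call the replicates biological without saying what was separate, so p-values measure only the spread between these samples.

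From these values each gene's percent of its library's sum was computed, and log2(FPKM + 1) of genes with a mean of at least 1 over the 6 libraries entered a limma fit (version 3.58.1, R 4.3.3, trended, robust empirical Bayes, 2-sided, Benjamini-Hochberg adjusted), own minus shared. Fold changes on this scale understate the change of low genes. List shares were compared by 2-sided exact permutation tests over 3 against 3 libraries, whose smallest p is 0.1. The smallest p adjusted over the lists was 0.179. Transcript lengths are medians over a gene's transcripts in a reference annotation of another build, found for 97.3% of tested genes. Current symbols, in brackets, matched 13055 rows. The fit was tested on simulated data.

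The members, gene lists and tests were chosen with earlier results of these data known. Named genes are the 30 with the highest means, the 10 that rose and the 10 that fell most between sets (called, mean 5 or more, sets not overlapping), up to 4 highest members of each list, and Dcr-2, white, Cg25C, dmondo and bigmax. Other genes named were chosen after their values were seen. Alternatives covered the pseudocount, the low-value filter, scaling, transcript length, the variance model, the libraries in the fit and each replicate left out.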

Additional observations from a re-analysis of the deposited data

Results flagged for a closer look

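In 9 cases a single library stood far from the other 5, by a criterion that flags about 1 in 20 groups by chance. Shares of many lists and values of many genes were screened, so some of these cases are expected by chance. The cases are also not independent, since Nplp2 is a member of the hemocyte list. The storage protein share was 21.4% and the share of the fat body defining genes, which include the storage list, was 21.8% in own-barcode replicate 4, with the other libraries at 16.5% to 18.2% and 16.8% to 18.7%. The ribosomal protein share was 19.2% in own-barcode replicate 6, with the others at 16.5% to 17.1%. In shared-barcode replicate 2 the hemocyte list reached 0.624%, Nplp2 314 FPKM and LysS, a lysozyme of the midgut list, 29.1 FPKM, with the others at 0.0860% to 0.278%, 10.4 to 63.1 FPKM and 0.704 to 7.57 FPKM. In shared-barcode replicate 3 CG31698 reached 333 FPKM and Fer1HCH, a ferritin subunit, 25.5 FPKM, with the others at 1.01 to 121 FPKM and 17.05 to 19.6 FPKM. In shared-barcode replicate 1 MtnA, a metallothionein, reached 58.9 FPKM, with the others at 28.4 to 37.4 FPKM.

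The 10 genes that rose and the 10 that fell most between sets on the control diet were also compared on high sugar. They were chosen for that large control-diet difference, which the comparison subtracts, so a smaller one on high sugar was favoured in advance. For 9 of them the set difference was not the same on high sugar, by limma's interaction term (high sugar minus control, log2, Benjamini-Hochberg adjusted). It was -2.41 for Mur18B (adjusted p = 0.00012), -2.76 for Act42A (adjusted p = 0.00041), -2.79 for Fst (adjusted p = 0.00012), -2.51 for CG42235 (adjusted p = 6.7e-05) and -2.77 for CG16727 (adjusted p = 8.8e-05), all higher in own-barcode libraries on the control diet. Among genes lower in own-barcode libraries on the control diet it was -3.35 for CG12310 (adjusted p = 0.019) and -4.25 for Sgs5 (adjusted p = 0.0070), and 2.34 for CG42500 and 1.37 for Lcp4. CG42500 and Lcp4 were at or near 0 in own-barcode libraries on the control diet, so no p-value is read from them. Their term may reflect a change with diet in shared-barcode libraries alone, which was not tested. Of 2297 genes tested 482 (21%) had a set difference that changed with diet.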

How the results depend on the processing

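Counts of genes called between the sets were 427 with a minimum mean of 5, against 1103, and 471 on high sugar, against 1227, where fewer genes were tested. With one replicate left out at a time the counts ranged from 794 to 1018 on the control diet and from 916 to 1154 on high sugar. Over the same omissions the top 10, top 50 and top 100 genes held 33.8% to 34.8%, 52.7% to 53.9% and 62.8% to 64.5%. The storage, ribosomal, glue, mitochondrial genome and translation factor lists held 17.4% to 18.4%, 16.8% to 17.4%, 3.08% to 4.78%, 3.25% to 3.66% and 1.95% to 2.12%. Multiplying values by transcript length, which counts long transcripts more, gave 37.5%, 49.9% and 57.2% for the top 10, 50 and 100 genes, 31.8% for storage proteins, 9.54% for ribosomal proteins, 1.63% for glue proteins and 2.62% for translation factors. The median Spearman correlation between sets was 0.82 over all rows above 0.

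With the same total in every library the log2 difference changed sign for dmondo (0.13), Obp99b (0.12), Fbp2 (0.40), Lsp2 (0.65), CG6770 (0.057), Cpr49Ac (0.48) and RpLP2 (0.18). With the same total outside the glue list, added after seeing the data, it did so for dmondo (0.084), Obp99b (0.043), Lsp2 (0.58), Cpr49Ac (0.40) and RpLP2 (0.10). RpL29 changed sign with the length trend removed (0.069). These follow from the scaling or length term itself. No paired analysis was possible because the 2 sets share no replicate number.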
